A study of Mus musculus with 2 samples.

Results

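The cytokine receptor chains described here are 10 genes of the 32285 in the count matrices: *Il2rb*, *Il2rg*, *Il4ra*, *Il21r*, *Il9r*, *Il6ra*, *Il6st*, *Il12rb2*, *Il18r1* and *Il1rl1*. They were taken as a list of names, drawn up with earlier results of these data known. All 10 were found in the matrices of both genotypes. Single-cell RNA sequencing had been run on TCRβ+ cells sorted from spleen and from cervical and inguinal nodes, pooled within a mouse at an age of 14 weeks, to ask which T cell states expand in disease and how bystander T cells change. The groups were 1 *Foxp3Cre* WT mouse, which carries a YFP-icre fusion knocked into *Foxp3*, and 1 DKO-severe *Foxp3-Cre Tet2/3fl/fl* mouse with the same Cre, floxed *Tet2* and *Tet3* and advanced disease. Cre is thus made where *Foxp3* is expressed, so deletion is aimed at regulatory T (Treg) cells and cells that descend from them, and CD8 T cells are not its target. The paper states, however, that expression of this Cre has been considered leaky, and deletion in CD8 T cells was not checked here. Cells of the genotypes were told apart by antibody hashtags and shared 1 mRNA library. With 1 mouse per genotype no test between genotypes is possible, no p-value is given, and every 95% interval covers counting error only.

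Cytokine receptors are built from chains that are reused in several receptors. *Il2rg* encodes the common gamma chain, which pairs with the products of *Il2rb* (IL-2 and IL-15), *Il4ra* (IL-4), *Il21r* (IL-21) and *Il9r* (IL-9), while *Il6ra* binds IL-6 and signals through gp130, the product of *Il6st*. *Il12rb2* encodes the signalling chain of the IL-12 receptor, and *Il18r1* and *Il1rl1* (ST2) encode the ligand-binding chains for IL-18 and IL-33. Through JAK kinases and STAT factors, or through MyD88 for the IL-1 family, these receptors steer T cell survival, Treg maintenance, help for B cells and cytotoxic differentiation.

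Cells were grouped by transcripts into 4 gates. Each gate required a UMI (a count of 1 distinct captured molecule) of *Cd3d*, *Cd3e* or *Cd3g*. The Cd4 Foxp3-negative gate added *Cd4* without *Cd8a*, *Cd8b1* or *Foxp3* and held 1675 WT and 2413 DKO-severe cells. The Foxp3-positive gate added *Cd4* and *Foxp3* without the *Cd8* genes and held 64 and 336 cells. The Cd8 gate added *Cd8a* or *Cd8b1* without *Cd4* and held 3053 and 1736 cells, and the innate-like gate added *Zbtb16*, the gene of PLZF in NKT and related cells, without *Foxp3* and held 105 and 222 cells. Levels are UMIs summed over a gate per 1000000 UMIs of that gate (CPM). The transcripts were counted at the 3' end, so levels are compared within a gene and not between genes. Median depth was higher in DKO-severe in every gate (5258 to 6246 UMIs per cell in WT, 7969 to 11607.5 in DKO-severe), so shares of cells with a UMI were taken after each cell was thinned to 3800 UMIs. The gates were applied anew to the thinned counts, so at equal depth they held fewer cells. The Foxp3-positive gate then held 32 WT and 91 DKO-severe cells. Cells that lost their *Foxp3* UMIs in thinning could enter the Cd4 Foxp3-negative gate.

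Libraries and gates had limits that touch the results below. Of the gated cells, 1.56 to 8.57% in WT and 5.07 to 25.9% in DKO-severe carried 3 or more UMIs of a B cell, monocyte or macrophage, granulocyte or mast cell marker list, and are called non-T-marked. The 6 granulocyte markers summed to 76.2 to 85.2 CPM in the WT gates and 1407 to 3693 CPM in the DKO-severe gates, while the mast cell and basophil list stayed at or under 5.41 CPM. The innate-like gate also held monocyte or macrophage markers, at 994 CPM in WT cells and 1276 CPM in DKO-severe. *Foxp3* is sparsely captured, and the Cd4 Foxp3-negative gate kept Treg marker transcripts at 588 CPM in WT cells and 1502 CPM in DKO-severe, against 3767 and 3528 CPM in the Foxp3-positive gate. Within the Foxp3-positive gate, *Foxp3* itself was at 200 CPM in WT cells and 118 CPM in DKO-severe. Cycling cells, with 2 or more UMIs summed over *Mki67* and *Top2a*, made up 3.1% and 21.4% of that gate. *Tet2* was at 56.6 CPM in WT cells and 71.1 CPM in DKO-severe Foxp3-positive cells and *Tet3* at 89.3 and 87.3 CPM. These 3' counts need not cover the deleted exons and do not check the deletion.

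In the annotation of the GRCm38 (mm10) build, the 10 genes lie on 8 chromosomes, and 2 pairs are neighbours on the same strand. *Il4ra* (chromosome 7, 125552120 to 125579474, plus strand) ends 23954 bp before *Il21r* starts (125603429 to 125633570). *Il1rl1* (chromosome 1, 40429570 to 40465415, plus strand) ends 136 bp before *Il18r1* starts (40465552 to 40500854). *Il2rb* lies on chromosome 15 (78479256 to 78495271, minus strand) and *Il2rg* on chromosome X (101264378 to 101268255, minus strand). The remaining genes are *Il9r* on chromosome 11 (32187541 to 32200279), *Il6ra* on chromosome 3 (89864059 to 89913196), *Il12rb2* on chromosome 6 (67291318 to 67376188), each on the minus strand, and *Il6st* on chromosome 13 (112464070 to 112510086, plus strand). An annotated antisense RNA, *Gm42809*, overlaps the start of *Il6ra*, and its effect on the *Il6ra* counts was not tested.

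Promoter windows of 300 bases, from 250 before to 50 after the gene's start, were available from RefSeq (GRCm38.p6) for 9 of the 10 genes, all but *Il2rb*. Because TET proteins act on methylated CG dinucleotides, the CGs were counted. *Il6ra* and *Il6st*, the IL-6 receptor chains, held 25 and 33 CGs, more than 81.6% and 91.7% of 27025 mouse promoters of this length, whose median was 7. Whether CG count goes with the ratios between the mice was not tested. *Il4ra* held 25, *Il12rb2* 12, *Il21r* 7, *Il2rg* 3, *Il9r* 5, and the first listed starts of *Il18r1* and *Il1rl1* 5 and 1. The 250 bases before the start of *Il6ra* (chr3:89913197-89913446, minus strand) and *Il6st* (chr13:112463820-112464069, plus strand) are shown as examples of CG-rich promoters, with CG in capitals. *Il12rb2* (chr6:67376189-67376438, minus strand) was the only one of the 9 whose first listed window matched TTCNNNGAA, the letters that STAT factors bind. Its match, 123 bases before the start, is in capitals. A later listed window of *Il18r1* (40465756 to 40466055) held 2 matches. Among the first listed windows of all promoters, the share with this match on either strand was 8.47%.
Il6ra: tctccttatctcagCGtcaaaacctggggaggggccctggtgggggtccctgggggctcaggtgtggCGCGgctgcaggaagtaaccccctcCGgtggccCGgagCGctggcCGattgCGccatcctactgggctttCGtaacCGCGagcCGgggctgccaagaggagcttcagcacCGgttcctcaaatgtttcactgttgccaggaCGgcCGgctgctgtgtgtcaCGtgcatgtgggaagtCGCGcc
Il6st: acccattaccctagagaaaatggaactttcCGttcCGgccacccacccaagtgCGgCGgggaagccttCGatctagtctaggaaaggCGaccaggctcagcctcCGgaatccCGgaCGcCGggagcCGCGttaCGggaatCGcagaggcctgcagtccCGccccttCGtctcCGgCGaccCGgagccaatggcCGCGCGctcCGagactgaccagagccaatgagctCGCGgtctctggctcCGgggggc
Il12rb2: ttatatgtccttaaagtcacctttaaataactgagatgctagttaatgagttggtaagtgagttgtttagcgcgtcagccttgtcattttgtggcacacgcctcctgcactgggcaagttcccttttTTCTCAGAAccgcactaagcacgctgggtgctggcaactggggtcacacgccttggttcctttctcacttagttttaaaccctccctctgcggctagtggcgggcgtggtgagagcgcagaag
The other motifs were searched on both strands of the first listed windows. AGATAA, which is bound by GATA family factors, was found in *Il9r*, *Il6ra* and *Il1rl1* and in 11.4% of all promoters. TGTGGT (RUNX factors) was found in *Il2rg*, *Il21r* and *Il9r* and in 16.9%, and ACTTCCG (ETS factors) in none of the 9 and in 6.59%. Later listed windows of *Il18r1* and *Il1rl1* also held TGTGGT. These matches are descriptions of letters, and no binding or methylation was measured in these data.

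Between the mice, the receptor chains did not differ in 1 direction. A gene is called higher or lower when its CPM ratio between the mice is 2-fold or more, among genes with at least 100 UMIs in a gate. In the Cd4 Foxp3-negative gate, 8 chains reached 100 UMIs, of which 1 was called higher (*Il2rb*) and 1 lower (*Il4ra*), where 14.6% and 4.28% of all 10969 tested genes were. In the Foxp3-positive gate 7 chains were tested, with 0 higher and 3 lower (*Il4ra*, *Il6ra* and *Il18r1*), against 10.8% and 3.77% of 6703 genes. Of 8 chains tested among Cd8 cells, 2 were higher (*Il2rb* and *Il12rb2*) and 1 lower (*Il6st*), against 3.18% and 1.87% of 10410 genes. For *Il12rb2* the WT count of 81 fell short of the minimum by itself, and DKO-severe cells added 190. The number of higher Cd8 chains is therefore not read against the 3.18%. Among innate-like cells 7 were tested, 0 were higher and 1 was lower (*Il18r1*), against 5.72% and 0.881% of 5336 genes.

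The median log2 ratio of the tested chains was −0.49, −0.96, −0.13 and −0.35 in these gates, in the same order, against 0.12, 0.10, −0.02 and 0.04 over all tested genes. At equal depth, the mean number of the 10 chains detected per cell was 2.23 in WT and 2.05 in DKO-severe Cd4 Foxp3-negative cells. It was 2.88 and 2.29 in Foxp3-positive cells, 2.22 and 2.21 in Cd8 cells, and 2.43 and 2.76 in innate-like cells. The plot of ratios shows that single chains departed from 0 in different gates.

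**Figure D1:**
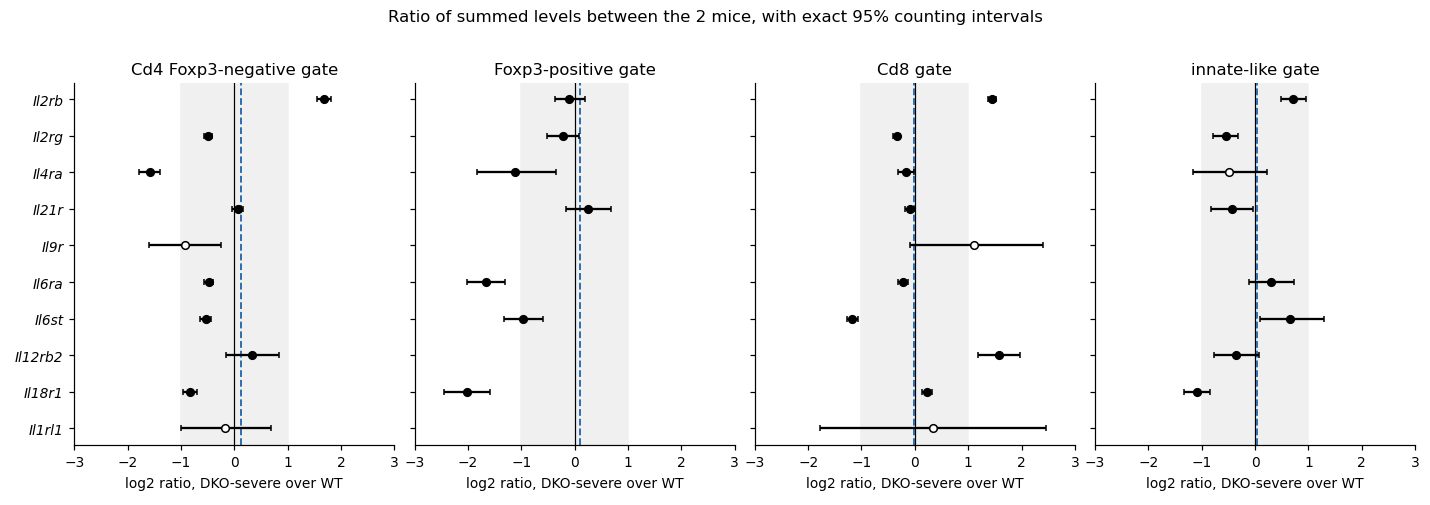
Log2 ratio of CPM in the DKO-severe mouse over the WT mouse for each receptor chain (rows) in the 4 gates (panels), with exact 95% counting intervals; filled points have 100 or more UMIs, open points fewer, the grey band spans 2-fold either way and the dashed line is the median of all tested genes. *Il2rb* lies to the right of the band in the Cd4 Foxp3-negative (1.69) and Cd8 (1.44) gates, and *Il18r1* lies farthest left in the Foxp3-positive gate (−2.02).

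*Il2rb*, the chain that IL-2 and IL-15 receptors share, was higher in DKO-severe in each gate but the Foxp3-positive one. In Cd4 Foxp3-negative cells it was at 54.5 CPM (533 UMIs) in WT cells and 176 CPM (4099 UMIs) in DKO-severe, for a log2 ratio of 1.69 (95% interval 1.56 to 1.82). Cd8 cells were at 86.6 and 236 CPM, for a log2 ratio of 1.44 (1.36 to 1.52), and innate-like cells at 220 and 362 CPM, 0.72 (0.48 to 0.96). Foxp3-positive cells were at 253 and 236 CPM, for a log2 ratio of −0.10 (−0.38 to 0.19), so that the intervals of the WT and DKO-severe levels overlapped there alone.

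The *Il2rb* difference was also one of how many cells had a UMI. At equal depth, 13.4% of WT and 44.4% of DKO-severe Cd4 Foxp3-negative cells (of 1250 and 1866) had one, and 22.6% and 52.5% of Cd8 cells (of 2898 and 1571). Innate-like cells went from 45.8% of 83 to 78.8% of 146, while Foxp3-positive cells were at 53.1% of 32 and 51.6% of 91. In B-marked DKO-severe cells, which should lack *Il2rb* and were thinned to the same depth, the share was 2.54% (5 of 197), so the shares in T cells stand above that background.

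Cells that still carried naive transcripts differed as well. Naive-marked cells are those with a UMI of *Lef1* and *Ccr7*, which mark resting T cells, and none of *Cd44*, which marks activated ones. In naive-marked Cd4 Foxp3-negative cells (805 WT, 233 DKO-severe) *Il2rb* was at 25.7 and 102 CPM, for a log2 ratio of 1.99 (1.65 to 2.33). In naive-marked Cd8 cells (1561 and 401) it was at 62.4 and 170 CPM, 1.45 (1.29 to 1.61). Naive-marked cells made up 48.1% of the WT and 9.66% of the DKO-severe Cd4 Foxp3-negative gate, so the ratio over the whole gate also includes the change in makeup. Among Cd8 cells with a UMI of a granzyme gene (*Gzma*, *Gzmb* or *Gzmk*; 190 and 582 cells), the levels were 117 and 257 CPM, for a log2 ratio of 1.13 (0.90 to 1.38). The higher level was thus found in subsets at either end of Cd8 differentiation.

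*Il2rg*, the common gamma chain, was lower in DKO-severe Cd4 Foxp3-negative, Cd8 and innate-like cells, by less than 2-fold. Its levels were 218 and 155 CPM in Cd4 Foxp3-negative cells (log2 ratio −0.49, −0.57 to −0.42), 217 and 172 CPM in Cd8 cells (−0.34, −0.41 to −0.27) and 282 and 193 CPM in innate-like cells (−0.55, −0.78 to −0.31). Foxp3-positive cells were at 218 and 187 CPM, where the interval included 0 (−0.52 to 0.09) and the sign turned to 0.11 with 2 or more UMIs of each gating gene required. At equal depth 54.1% and 44.1% of Cd4 Foxp3-negative cells had a UMI, 55.1% and 47.6% of Cd8 cells, 62.5% and 57.1% of Foxp3-positive cells, and 66.3% and 63.7% of innate-like cells. Unlike *Il2rb*, *Il2rg* is expressed by B cells, and 46.7% of the B-marked DKO-severe cells had it.

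Cells in which both chains were captured followed *Il2rb*. At equal depth, *Il2rb* and *Il2rg* were detected together in 7.44% of WT and 20.1% of DKO-severe Cd4 Foxp3-negative cells, where the product of the single shares gives 7.27% and 19.5%. The joint shares were 12.7% and 24.9% in Cd8 cells, 32.5% and 53.4% in innate-like cells, and 34.4% and 34.1% in Foxp3-positive cells. *Il2ra*, which encodes the chain that makes the IL-2 receptor high-affinity and is a Treg marker, was at 34.5 and 55.3 CPM in Cd4 Foxp3-negative cells and at 490 and 162 CPM in Foxp3-positive cells, for a log2 ratio of −1.60 (−1.81 to −1.38). *Il2ra* with *Il2rb* was found in 2.64% and 7.02% of Cd4 Foxp3-negative cells, in 34.4% (11 of 32) and 19.8% (18 of 91) of Foxp3-positive cells, and in 15.7% and 40.4% of innate-like cells. The Foxp3-positive shares have wide intervals (18.6 to 53.2% in WT and 12.2 to 29.4% in DKO-severe).

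**Figure D2:**
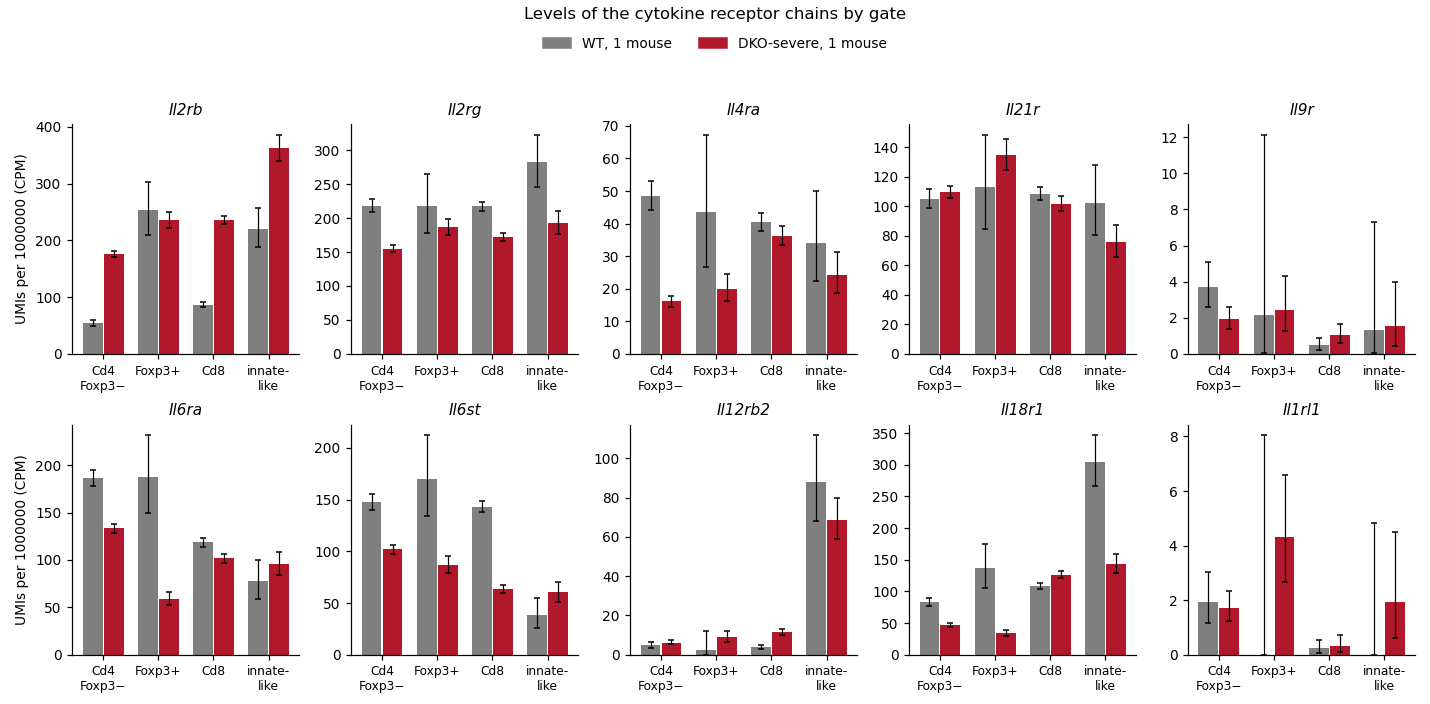
UMIs per 1000000 (CPM) of the 10 chains in the 4 gates, WT in grey and DKO-severe in red, 1 mouse each; bars are summed levels and lines are exact 95% Poisson intervals for counting error. *Il2rb* bars are higher in DKO-severe in 3 gates (176, 236 and 362 CPM against 54.5, 86.6 and 220), and *Il12rb2* is highest in innate-like cells (87.9 and 68.8 CPM).

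*Il4ra*, the chain that binds IL-4, was lower in CD4 T cells of the DKO-severe mouse and close to WT in CD8 T cells. Cd4 Foxp3-negative cells were at 48.4 CPM (473 UMIs) in WT cells and 16.1 CPM (376 UMIs) in DKO-severe, for a log2 ratio of −1.58 (−1.78 to −1.39). Cd8 cells were at 40.5 and 36.2 CPM, for a log2 ratio of −0.16 (−0.31 to −0.01), an interval that does not overlap that of the Cd4 cells. Whether the gates differ beyond the spread between mice was not tested. At equal depth 17.6% and 5.25% of Cd4 Foxp3-negative cells had a UMI, against 13.9% and 12.2% of Cd8 cells.

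In the Foxp3-positive gate *Il4ra* was at 43.6 CPM in WT, from 20 UMIs, and 20.1 CPM in DKO-severe cells, for a log2 ratio of −1.12 (−1.82 to −0.35). The shares at equal depth were 12.5% (4 of 32) and 12.1% (11 of 91), and 28.6% and 12.6% when the random thinning was repeated, so the WT share rests on a few cells. Innate-like cells were at 34.1 and 24.3 CPM, with 89 UMIs in all, under the minimum of 100. Non-T-marked cells held 23.1% of the DKO-severe *Il4ra* UMIs of the Cd4 Foxp3-negative gate and 19.1% of all its UMIs, and without them the log2 ratio was −1.66.

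Within DKO-severe Cd4 Foxp3-negative cells *Il4ra* was lower in some subsets than in the rest of the gate. Cells with an *Il21* UMI (762 cells) were at 10.2 CPM and the other cells of the gate at 19.4 CPM, for a log2 ratio of −0.93 (−1.29 to −0.58). Cells with 2 or more UMIs of *Cntn5*, a neuronal adhesion gene that 699 DKO-severe and 12 WT cells of the gate carried, were at 11.2 CPM against 18.3 CPM. Cells with UMIs of both *Pdcd1* and *Cxcr5* (356 cells), which encode the follicular helper (Tfh) markers PD-1 and CXCR5, were at 14.2 against 16.6 CPM, with an interval of the log2 ratio that included 0 (−0.64 to 0.16). Naive-marked cells kept more, at 56.2 CPM in WT cells and 28.6 CPM in DKO-severe cells, for a log2 ratio of −0.97 (−1.42 to −0.55). Naive-marked Cd8 cells were at 38.3 and 36.6 CPM, −0.07 (−0.35 to 0.21). IL-4 itself, the ligand, was at 5.01 and 14.5 CPM in the Cd4 Foxp3-negative gate, for a log2 ratio of 1.54 (1.10 to 2.00).

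*Il21r*, whose gene follows *Il4ra* on chromosome 7, was at nearly the same level in both mice. Cd4 Foxp3-negative cells were at 105 and 110 CPM (log2 ratio 0.06, −0.04 to 0.17), Foxp3-positive cells at 113 and 135 CPM (0.25, −0.16 to 0.69) and Cd8 cells at 108 and 102 CPM (−0.09, −0.18 to 0.00). Innate-like cells were lower, at 102 and 75.7 CPM (−0.43, −0.82 to −0.04). The Cd4 sign turned to −0.10 when the total was taken without genes of immunoglobulins, haemoglobins, mitochondria and ribosomal proteins, a scaling that moved every ratio of that gate by −0.16 and of the Foxp3-positive gate by −0.11. Its ligand differed by far more: *Il21* was at 2.76 and 83.3 CPM in Cd4 Foxp3-negative cells, for a log2 ratio of 4.91 (4.37 to 5.52). Cells with an *Il21* UMI carried *Il21r* at 113 CPM and the other DKO-severe cells of the gate at 108 CPM, so the receptor was not concentrated in the cells that make the ligand.

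*Il9r* was near the limit of capture in T cells and more frequent in B-marked cells. In Cd4 Foxp3-negative cells 36 UMIs in 32 WT cells and 45 UMIs in 33 DKO-severe cells were counted, 3.68 and 1.93 CPM, and no other gate held more than 17 UMIs of a genotype. At equal depth 0.960% and 0.697% of Cd4 Foxp3-negative cells had a UMI, against 11.7% (23 of 197; 7.55 to 17.0%) of B-marked DKO-severe cells and 3 of 11 in WT. Non-T-marked cells held 4 of 10 WT and 6 of 17 DKO-severe *Il9r* UMIs of the Cd8 gate, with 4.04% and 7.18% of all its UMIs, but 3 of 36 and 7 of 45 in the Cd4 Foxp3-negative gate, with 4.67% and 19.1% of all its UMIs. Shares at equal depth were under 1% in the Cd4 Foxp3-negative and Cd8 gates. The other gates held at most 2 cells with a UMI per genotype, so no difference between genotypes is read from this gene.

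*Il6ra*, the IL-6 binding chain, was lower in Foxp3-positive cells of the DKO-severe mouse and closer to WT elsewhere. Foxp3-positive cells were at 187 CPM (86 UMIs) in WT cells and 59.2 CPM (289 UMIs) in DKO-severe, for a log2 ratio of −1.66 (−2.01 to −1.30). That ratio was −1.12 with 2 or more UMIs of each gating gene required and −1.63 without cycling cells. The share with a UMI at equal depth was 56.2% (18 of 32; 37.7 to 73.6%) and 14.3% (13 of 91; 7.83 to 23.2%). Cd4 Foxp3-negative cells were at 186 and 133 CPM (−0.48, −0.56 to −0.40), with 48.0% and 35.0% of cells, and Cd8 cells at 118 and 102 CPM (−0.22, −0.31 to −0.13), with 33.8% and 26.3%. The WT Foxp3-positive and Foxp3-negative levels did not differ beyond their intervals, while in DKO-severe they did.

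The lower *Il6ra* of Foxp3-positive cells was not confined to cells with *Dscam*, a neuronal adhesion gene present in 89 of 336 DKO-severe cells here. Cells without a *Dscam* UMI (59 WT, 247 DKO-severe) were at 188 and 61.8 CPM, for a log2 ratio of −1.61 (−1.99 to −1.21), and the *Dscam* cells of DKO-severe at 53.4 CPM. Non-T-marked cells held 36.05% of all UMIs of the DKO-severe gate and 45.0% of its *Il6ra* UMIs, and without them the log2 ratio was −1.91. In Cd4 Foxp3-negative DKO-severe cells, those with *Cntn5* were at 170 CPM and the others at 117 CPM, for a log2 ratio of 0.53 (0.43 to 0.64), and those with *Il21* at 142 against 128 CPM. *Il6ra* was thus higher in the subset with the neuronal gene than in the rest of the gate, with both values under the 186 CPM of WT.

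*Il6st*, which encodes gp130, was lower in DKO-severe Cd8 and Cd4 Foxp3-negative cells. Cd8 cells were at 143 CPM (3008 UMIs) in WT cells and 63.4 CPM (1049 UMIs) in DKO-severe, for a log2 ratio of −1.18 (−1.28 to −1.07), and 38.4% and 19.7% of cells had a UMI at equal depth. Cd4 Foxp3-negative cells were at 148 and 102 CPM (−0.54, −0.63 to −0.44), with 37.9% and 29.6% of cells. Foxp3-positive cells were at 170 and 87.1 CPM (−0.96, −1.32 to −0.60), just under 2-fold. The shares there depended on the thinning, at 31.2% and 37.4% with 3800 UMIs per cell and at 57.9% and 30.3% with 2000, so no order is read from them.

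Among Cd8 cells the *Il6st* difference was widest in those with granzyme transcripts. Granzyme-positive cells were at 136 CPM in WT cells and 35.8 CPM in DKO-severe cells, for a log2 ratio of −1.93 (−2.24 to −1.62), and naive-marked cells at 150 and 85.7 CPM, −0.80 (−0.98 to −0.63). In WT, granzyme-positive Cd8 cells and the rest of the gate were at 136 and 144 CPM, for a log2 ratio of −0.08 (−0.30 to 0.13), whereas in DKO-severe they were at 35.8 and 74.1 CPM, −1.05 (−1.30 to −0.81). *Il6ra* went from 96.3 to 49.0 CPM in the granzyme-positive cells (−0.97, −1.29 to −0.66) and from 126 to 133 CPM in naive-marked Cd8 cells (0.08, −0.07 to 0.23). Of the IL-6 receptor chains, both were thus lower in the granzyme-positive cells, and in the naive-marked ones gp130 was lower while the *Il6ra* interval included 0.

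In Cd4 Foxp3-negative DKO-severe cells, *Il6st* was at 135 CPM in cells with *Il21* and 83.4 CPM in the others (log2 ratio 0.70, 0.58 to 0.81), and at 135 and 87.2 CPM with and without *Cntn5*. Cells with *Pdcd1* and *Cxcr5* were at 128 CPM against 95.4 CPM. The IL-6 signalling chain was therefore higher in each of these subsets than in the rest of the same gate. *Il6ra* and *Il6st* were detected together in 18.3% and 12.4% of Cd4 Foxp3-negative cells, 12.3% and 6.30% of Cd8 cells, and 21.9% (7 of 32) and 7.69% (7 of 91) of Foxp3-positive cells. The ligand *Il6* had at most 1 UMI in any gate and genotype.

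In the innate-like gate the IL-6 receptor chains came largely from cells with markers of other lineages. *Il6ra* was at 77.4 and 95.4 CPM and *Il6st* at 38.1 and 60.3 CPM, the second a log2 ratio of 0.66 (0.08 to 1.29). The 9 non-T-marked WT cells (of 105) held 55.9% of the gate's *Il6ra* and 48.3% of its *Il6st* UMIs, and the 43 in DKO-severe (of 222) held 66.8% and 61.5%. These non-T-marked cells held 17.1% of all UMIs of the gate in WT and 39.4% in DKO-severe. Their level of *Il6ra* was 253 CPM in WT cells and 162 CPM in DKO-severe, against 41.2 and 52.3 CPM in the other cells. Without them the *Il6st* log2 ratio was 0.69.

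**Figure D3:**
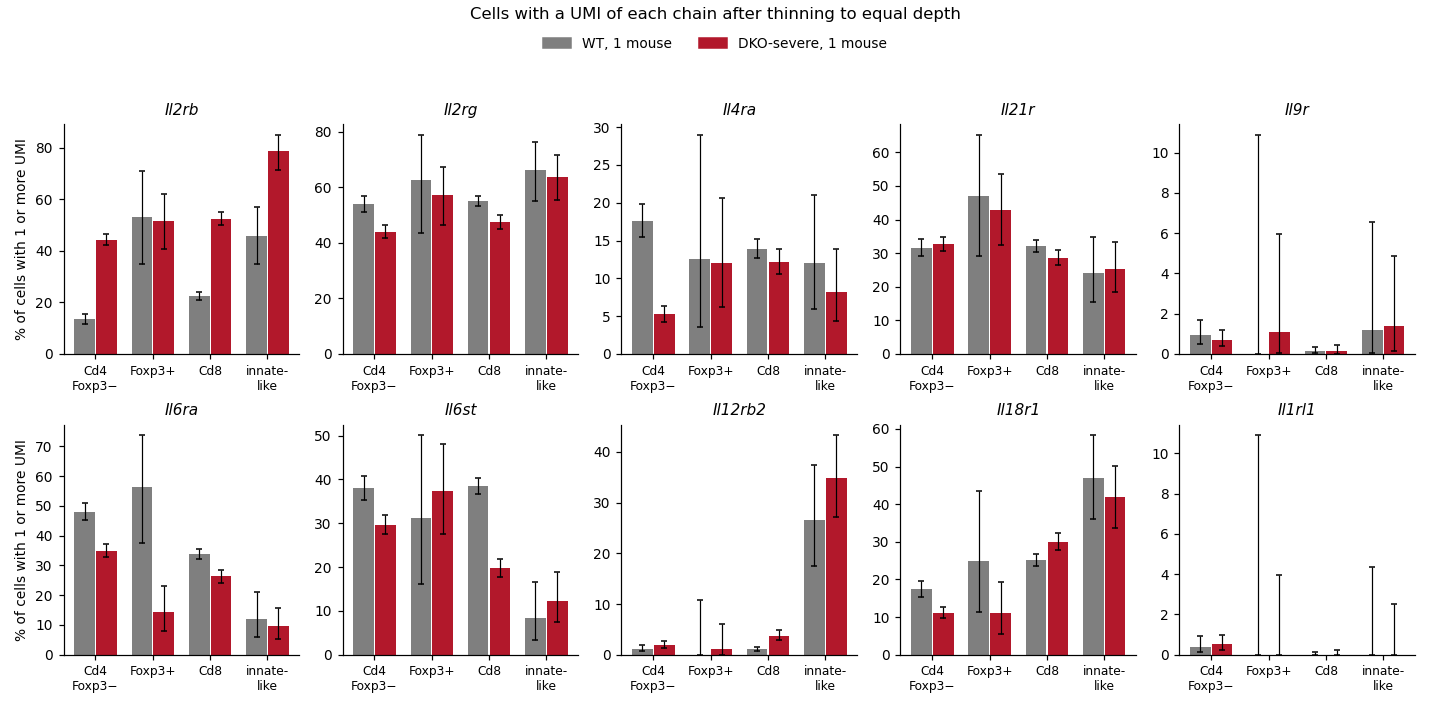
Percent of cells with 1 or more UMI of each chain after thinning to 3800 UMIs per cell, by gate, WT in grey and DKO-severe in red, 1 mouse each, with exact 95% binomial intervals. *Il4ra* is at 17.6% in WT and 5.25% in DKO-severe Cd4 Foxp3-negative cells and at 13.9% and 12.2% in Cd8 cells, while *Il6ra* is at 56.2% and 14.3% in Foxp3-positive cells.

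*Il12rb2*, the inducible chain of the IL-12 receptor, was rare in conventional T cells and common in innate-like ones. Innate-like cells were at 87.9 CPM in WT cells and 68.8 CPM in DKO-severe (log2 ratio −0.35, −0.77 to 0.07), and 26.5% and 34.9% of them had a UMI at equal depth. Cd8 cells were at 3.86 CPM (81 UMIs) and 11.5 CPM (190 UMIs), for a log2 ratio of 1.57 (1.19 to 1.97), with 1.10% and 3.76% of cells. B-marked DKO-severe cells had a UMI in 0.508% (1 of 197). Cd4 Foxp3-negative cells were at 4.91 and 6.18 CPM, with an interval that included 0 (−0.15 to 0.83), and the Foxp3-positive gate held 1 UMI in WT and 43 in DKO-severe, 14 of which were in 1 cell.

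The *Il12rb2* difference of the Cd8 gate lay in granzyme-positive cells. These were at 4.28 CPM (6 UMIs) in WT cells and 29.1 CPM (134 UMIs) in DKO-severe, for a log2 ratio of 2.76 (1.60 to 4.24), while naive-marked Cd8 cells were at 3.08 and 5.04 CPM, 0.71 (−0.17 to 1.56). Within DKO-severe the granzyme-positive cells exceeded the rest of the gate (29.1 against 4.69 CPM, log2 ratio 2.63, 2.17 to 3.11), and in WT they did not differ beyond counting error (4.28 against 3.83 CPM, −1.33 to 1.35). In DKO-severe Cd4 Foxp3-negative cells it was lowest with *Pdcd1* and *Cxcr5*, at 1.74 against 7.26 CPM. Its constant partner *Il12rb1* was at 2.71 and 6.05 CPM in Cd8 cells, for a log2 ratio of 1.16 (0.67 to 1.65), and both chains were captured together in 1 of 2898 Cd8 cells of WT and 3 of 1571 of DKO-severe. *Il12b*, a subunit of IL-12 itself, had 0 UMIs in every gate.

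*Il18r1*, the IL-18 binding chain, was lower in Foxp3-positive cells of the DKO-severe mouse and slightly higher in Cd8 cells. Foxp3-positive cells were at 137 CPM (63 UMIs in 20 cells) in WT cells and 33.8 CPM (165 UMIs in 63 cells) in DKO-severe, for a log2 ratio of −2.02 (−2.45 to −1.58). Cd4 Foxp3-negative cells were at 82.9 and 46.5 CPM (−0.83, −0.97 to −0.70) and innate-like cells at 304 and 143 CPM (−1.09, −1.33 to −0.84). Cd8 cells were at 108 and 127 CPM (0.23, 0.14 to 0.32). The shares at equal depth were 25% and 11% in Foxp3-positive, 17.4% and 11.1% in Cd4 Foxp3-negative, 47.0% and 41.8% in innate-like and 25.1% and 29.98% in Cd8 cells, against 1.52% (3 of 197) in B-marked DKO-severe cells.

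The innate-like value leans on cells whose nature is mixed. *Zbtb16*, the gate's own gene, was at 476 CPM in WT cells and 212 CPM in DKO-severe, and non-T-marked cells held 39.4% of the gate's DKO-severe UMIs. Without them *Il18r1* was at 350 and 199 CPM, for a log2 ratio of −0.82, no longer 2-fold.

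Subsets of the gates also differed in *Il18r1*. Granzyme-positive Cd8 cells were at 131 CPM in WT cells and 193 CPM in DKO-severe (log2 ratio 0.56, 0.33 to 0.80), and naive-marked Cd8 cells at 87.0 and 81.2 CPM (−0.10, −0.29 to 0.09). In DKO-severe Cd4 Foxp3-negative cells, those with *Pdcd1* and *Cxcr5* were at 18.3 CPM and the others at 53.5 CPM, for a log2 ratio of −1.55 (−1.88 to −1.22). Foxp3-positive cells without *Dscam* were at 116 and 40.2 CPM, and the *Dscam* cells of DKO-severe at 19.4 CPM. The 5 *Dscam* cells of WT held 16 UMIs, too few cells for a comparison.

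The signalling partner of *Il18r1* ran a different course. *Il18rap*, which encodes the accessory chain that IL-18 signalling needs, was at 28.2 CPM in WT cells and 96.0 CPM in DKO-severe Cd8 cells, for a log2 ratio of 1.77 (1.63 to 1.91), and at 10.1 and 18.9 CPM in Cd4 Foxp3-negative cells (0.90, 0.58 to 1.23). In Foxp3-positive cells no UMI was found in WT against 116 in DKO-severe, 23.8 CPM. Cd8 cells with both chains went from 3.28% to 10.9% at equal depth (product of the single shares 1.76% and 7.06%), while innate-like cells were at 13.3% and 13.7%.

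*Il1rl1* (ST2), the IL-33 binding chain, was barely captured. It had 19 UMIs in 8 WT and 40 UMIs in 21 DKO-severe Cd4 Foxp3-negative cells, 1.94 and 1.72 CPM, and 0 of 32 WT and 0 of 91 DKO-severe Foxp3-positive cells had a UMI at equal depth, which allows shares of cells with a UMI, at that depth, of up to 9.38% and 3.30% (3 counts of the total). Without thinning, 0 UMIs were found in the 64 WT and 21 UMIs in 8 of the 336 DKO-severe Foxp3-positive cells, 4.30 CPM. Its partner *Il1rap* was found in 7.20% and 6.43% of Cd4 Foxp3-negative cells. A difference in ST2 was not detectable at this depth.

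**Figure D4:**
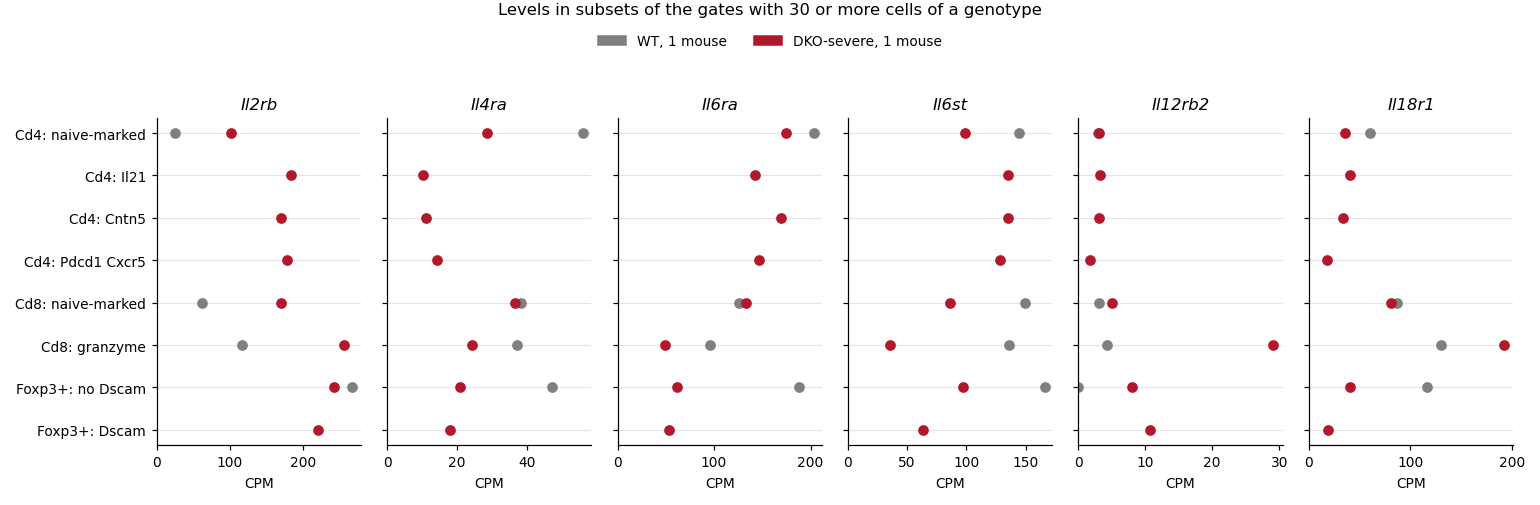
CPM of 6 chains in subsets of the gates (rows), WT in grey and DKO-severe in red; a point is drawn where a genotype has 30 or more cells of the subset, so the *Il21*, *Cntn5*, *Pdcd1 Cxcr5* and *Dscam* rows show DKO-severe only. The granzyme row separates *Il6st* (136 and 35.8 CPM) and *Il12rb2* (4.28 and 29.1 CPM), and the naive-marked rows show *Il2rb* at 102 and 170 CPM in DKO-severe against 25.7 and 62.4 CPM in WT.

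Other chains, kinases and ligands of these pathways were taken as fixed lists. Of 24 further receptor chains, 22 were tested in Cd4 Foxp3-negative cells, with 7 called higher (*Il12rb1*, *Il23r*, *Il1r1*, *Il1r2*, *Il10ra*, *Crlf2* and *Csf2rb*) and 2 lower (*Ifngr2* and *Tgfbr2*), against 14.6% and 4.28% of all tested genes. Some of the 7 reached 100 UMIs through DKO-severe alone, such as *Il23r* with 9 and 122 UMIs, *Il1r1* with 5 and 134 and *Csf2rb* with 16 and 131, so the count of higher chains is not read as a property of the list. In Foxp3-positive cells 15 were tested, 4 higher (*Il18rap*, *Il1r2*, *Il10ra* and *Crlf2*) and 3 lower (*Il2ra*, *Ifngr2* and *Tgfbr2*), against 10.8% and 3.77%. The 4 higher chains had 0 and 116, 4 and 521, 11 and 246, and 23 and 544 UMIs. Each thus passed the minimum through DKO-severe alone, and their count is not read either. The same limit touches Cd8 cells, where *Il1r2* had 31 and 75 UMIs and *Il12rb1* 57 and 100. Cd8 cells had 18 tested, 4 higher (*Il12rb1*, *Il18rap*, *Il1r2* and *Il10ra*) and 1 lower (*Ifngr2*), against 3.18% and 1.87%, and innate-like cells 14 tested, 0 higher and 1 lower (*Il23r*), against 5.72% and 0.881%. The list medians were 0.32, −0.33, 0.26 and −0.24, beside 0.12, 0.10, −0.02 and 0.04 over all tested genes.

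Several of these genes have clear roles. *Il10ra*, the IL-10 binding chain, was at 11.9 and 46.1 CPM in Cd4 Foxp3-negative cells (log2 ratio 1.96, 1.68 to 2.25) and at 10.95 and 35.8 CPM in Cd8 cells (1.71, 1.49 to 1.93). *Tgfbr2*, a TGF-β receptor chain, was at 321 and 101 CPM in Cd4 Foxp3-negative cells (−1.67, −1.74 to −1.59) and at 255 and 192 CPM in Cd8 cells (−0.41, −0.48 to −0.35). *Il1r2*, the IL-1 decoy receptor, which neutrophils also express, was at 4.30 and 44.7 CPM in Cd4 Foxp3-negative cells, where granulocyte markers differed as well; the part of those cells in the *Il1r2* difference was not tested. *Il7r*, the IL-7 binding chain of resting T cells and another partner of *Il2rg*, was at 506 and 324 CPM in Cd4 Foxp3-negative cells and at 224 and 361 CPM in Foxp3-positive cells, log2 ratios of −0.64 (−0.70 to −0.59) and 0.68 (0.40 to 0.99).

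Of the 4 JAK kinases, *Jak3*, which binds the common gamma chain, was called higher in Cd4 Foxp3-negative cells alone (10.9 and 22.6 CPM, log2 ratio 1.05, 0.74 to 1.36), and the other kinase tests stayed within 2-fold. Of 12 ligands, 5 reached 100 UMIs in Cd4 Foxp3-negative cells, each only through DKO-severe: *Il2* with 28 and 196 UMIs, *Il4* with 49 and 339, *Il18* with 18 and 173, *Il21* with 27 and 1941 and *Ebi3* with 28 and 138. All 5 were past 2-fold, which the minimum largely fixed, and 14.6% of all tested genes were. No ligand reached 100 UMIs in the Foxp3-positive or Cd8 gate, and 1 did among innate-like cells, *Il4* at 52.5 and 56.4 CPM.

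Across the 8 combinations of gate and genotype, *Il12rb2* had the widest range on the log2 scale (4.81), followed by *Il18r1* (3.13) and *Il2rb* (2.71). The low end for *Il12rb2* was the WT Foxp3-positive gate, at 2.18 CPM from 1 UMI (interval 0.06 to 12.1). Its range and its correlations below therefore lean on a value near the limit of capture. The genes whose profile was most like that of *Il12rb2* by Pearson correlation over these 8 points were *Rab35* (0.99), *Nabp1* (0.99) and *Coro1c* (0.98). For *Il18r1* they were *Dop1b*, *Dock10* and *Mbp* (each 0.97), and for *Il2rb* they were *E2f3* (0.96), *Sae1* (0.95) and *Tmem33* (0.95). At least 5181 genes were compared for each, the gates of a genotype share a library and partly share cells, and the correlations are descriptions. In order of level, *Il2rb* was highest in DKO-severe innate-like cells, followed by WT Foxp3-positive, DKO-severe Foxp3-positive, DKO-severe Cd8 and WT innate-like cells, which did not differ from their neighbours beyond their intervals, then DKO-severe Cd4 Foxp3-negative, WT Cd8 and WT Cd4 Foxp3-negative cells, which did.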

How the data were processed

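TCRβ+ cells of 1 WT and 1 DKO-severe mouse were profiled with 10x Genomics 3' chemistry in 1 mRNA and 1 hashtag library. The authors deposited raw UMI counts per gene and barcode, made with Cell Ranger 7.1.0 on mm10 and not normalized, in 1 matrix per genotype (45294779 and 69692053 UMIs). The genotype of a barcode followed its hashtag, 3 WT barcodes with more Hashtag 2 counts were left out, and the matrices shared 0 barcodes. The filter kept cells with 500 or more genes and a mitochondrial share of at most 10%. Scrublet in scanpy 1.11.5 marked 0 barcodes at its automatic threshold, so the highest 6% of scores per matrix were removed, which left 6585 WT and 6377 DKO-severe cells.

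Counts were summed per gate and genotype. Ratios have exact 95% intervals, conditional on the gene's total. No ratio is given where a genotype had 3 UMIs or fewer and the total was under 100. For equal depth, cells were thinned at random to 3800 UMIs, and 10.5% of WT and 7.48% of DKO-severe cells were shallower and left out. The gates were set on the thinned counts, so cells that lost a gating UMI also left their gate. Shares have exact binomial (Clopper-Pearson) intervals. B-marked cells had 3 or more UMIs of *Cd79a*, *Cd79b* or *Ms4a1* and none of the *Cd3* genes. A further gene planned for the B cell marker lists is not reported here and entered no value. Subset ratios needed 30 cells of both genotypes. The ratio step was checked on counts simulated from gene proportions of the whole WT matrix, at a fraction of each matrix's total.

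The genes named are the 10 members, fixed lists of 24 chains, 4 kinases and 12 ligands, and the 3 most similar genes for the 3 members of widest range. The members, lists and subsets were chosen with earlier results of these data known. Alternatives were another doublet rule, stricter cell filters, stricter or exclusive gates, leaving out non-T-marked or cycling cells, other totals, averages or added values for CPM, other UMI minimums, and another thinning seed or depth.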

Additional observations from a re-analysis of the deposited data

Results flagged for a closer look

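2 chains had log2 ratios of opposite sign in 2 gates, each with a counting interval clear of 0. *Il6st* was at 0.66 in the innate-like gate and −1.18 in the Cd8 gate. *Il18r1* was at 0.23 in the Cd8 gate and −2.02 in the Foxp3-positive gate. With 1 mouse per genotype the difference between gates was not tested for either chain. In the innate-like gate non-T-marked cells held 48.3% of the WT and 61.5% of the DKO-severe *Il6st* UMIs, and the WT Foxp3-positive gate held 63 *Il18r1* UMIs in 20 cells.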

How the results depend on the processing

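Of 96 recomputed counts of called chains, 85 stayed within 1.5 times. Among 414 recomputed gate log2 ratios 31 were marked as moved, and among 240 recomputed shares of cells 58 were. With 300 or more UMIs required, 1 chain was lower in the Foxp3-positive gate instead of 3, and 1 was higher in the Cd8 gate instead of 2. The Foxp3-positive count of lower chains was 2 with exclusive gates, without non-T-marked cells, without cycling cells, or with 5 CPM added. It was 4 when the total left out genes of immunoglobulins, haemoglobins, mitochondria and ribosomal proteins. With 5 CPM added, 1 chain was higher in the Cd8 gate, since *Il12rb2* had a log2 ratio of 0.90. In the innate-like gate, 1 chain was higher instead of 0 with the highest 12% of doublet scores removed (*Il2rb*, 1.00). The count of lower chains there was 0 instead of 1 with that removal, with no doublet removal, with 1000 genes and 5% mitochondrial UMIs as limits, with exclusive gates, without non-T-marked cells, without cycling cells, and as the mean of CPM over cells. *Il18r1* ranged from −1.41 to −0.76 over these settings and the stricter gating, and the cause was not tested.

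Over the 10 alternatives that can change a ratio (other UMI minimums cannot), the log2 ratio of *Il2rb* ranged from 1.53 to 1.82 in Cd4 Foxp3-negative and from 1.39 to 1.55 in Cd8 cells, *Il4ra* from −1.79 to −1.34 in Cd4 Foxp3-negative cells, *Il6st* from −1.21 to −1.12 in Cd8 cells, and *Il6ra* from −2.05 to −1.12 and *Il18r1* from −2.40 to −1.82 in Foxp3-positive cells. *Il4ra* in Foxp3-positive cells ranged from −1.66 to −0.90 and was 2-fold or more lower in 7 of 10. Of 35 gate ratios 7 changed sign under 1 or more alternatives, and 0 of these were 2-fold or more. They were *Il2rb* (−0.21 to 0.34), *Il2rg* (−0.33 to 0.11) and *Il21r* (−0.08 to 0.39) in the Foxp3-positive gate, *Il6ra* (−0.45 to 0.46) and *Il12rb2* (−0.45 to 0.13) in the innate-like gate, *Il21r* in Cd4 Foxp3-negative cells (−0.10 to 0.11), and *Il1rl1* in Cd8 cells, which was near the limit of capture (−1.13 to 0.34). No paired analysis was possible because each genotype has 1 mouse. The 64 WT cells and the non-T-marked DKO-severe cells limit the Foxp3-positive gate, and 3800 UMIs per cell limit rare chains such as *Il9r* and *Il1rl1*.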

Other observations

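Cells outside the 4 T cell gates also carried receptor chains. At equal depth, B-marked cells of the DKO-severe mouse (197 cells) had a UMI of *Il21r* in 38.6%, of *Il4ra* in 11.2%, of *Il6st* in 4.57% and of *Il6ra* in 2.54%. The WT mouse had 11 such cells, so the genotypes were not compared.

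The share of cells with 4 or more of the 10 chains at equal depth was 13.3% in WT and 34.9% in DKO-severe innate-like cells, and 37.5% (12 of 32) and 19.8% (18 of 91) in Foxp3-positive cells. It was 13.3% and 10.3% in Cd4 Foxp3-negative cells and 14.5% and 13.9% in Cd8 cells.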
